A study of Mus musculus with 112 samples.

Results

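Foxd2os, Zfp990, Ddr2, Fam20a, 5330417C22Rik and Ddo are 6 of the 32285 genes counted in sorted mouse intestinal cells. They were chosen by their counts in intestinal stem cells (ISCs), low in young mice and higher in aged ones. That contrast is therefore given below as a description, with no p-value for a member. Nothing is supported by it or by the calls counted for it in the closing section. Tests are given in the progenitors and Paneth cells, whose counts the choice did not use. These gates are not independent of the choice, because many of their samples came from mice whose ISCs entered it. Only 5 of 10 young and 5 of 10 aged progenitor samples came from other mice. In Paneth cells 5 of 12 young and 4 of 12 aged samples did. All mice were C57BL/6 carrying Lgr5-eGFP-IRES-CreERT2, an allele that puts GFP and a tamoxifen-inducible Cre under the Lgr5 stem cell promoter, and the labels name no treatment. Young mice were 2 to 3 months old and aged mice 23 to 27 months old. Crypts came from the proximal small intestine. ISCs were sorted as GFP high and progenitors as GFP medium or low, both Epcam high and CD24 low, and Paneth cells as GFP-negative cells with high CD24 and high side scatter. There were 11 young and 12 aged ISC samples, 10 and 10 progenitor samples, and 12 and 12 Paneth samples, with both sexes in each group.

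ISCs sit at the base of the crypt and divide throughout life. Their daughters, the progenitors, become absorptive cells or secretory cells such as goblet cells, and Paneth cells lie between the stem cells and secrete antimicrobial proteins. The 6 genes have unlike roles. Ddr2 is a receptor tyrosine kinase that binds fibrillar collagen and is best known from fibroblasts, Fam20a is a pseudokinase that activates the secretory-pathway kinase Fam20c, and Ddo is the peroxisomal oxidase of D-aspartate. Zfp990 belongs to the KRAB zinc fingers, a family of DNA-binding repressors that act with the corepressor Trim28. Foxd2os is a noncoding transcript opposite the forkhead gene Foxd2, and 5330417C22Rik (Elapor1) is a membrane protein of endosomes and lysosomes found in secretory cells.

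Libraries were made from the 3′ end of polyadenylated RNA, and levels are given as counts per 1000000 counts of the sample (CPM). ISC samples held 2.18 to 5.59 M counts (M stands for 1000000), progenitors 2.48 to 7.57 M, and Paneth samples 2.82 to 11.8 M. The sort gates matched their markers. Summed CPM of 5 ISC markers (Lgr5, Olfm4, Ascl2, Smoc2 and Axin2) had a median of 14120 in young and 14620 in aged ISCs, against 1898 and 1738 in progenitors. The median of 6 Paneth markers was 58700 in young and 93360 in aged Paneth cells, against 566 and 532 in ISCs. In 1 aged female ISC sample (animal 121) 6 immune markers summed to 418 CPM, and in the other ISC samples they summed to at most 5.09 CPM.

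In GENCODE M21 coordinates (GRCm38, the same build as mm10) Foxd2os spans chr4:114909257-114921967 on the plus strand and is annotated as a processed transcript. Foxd2 runs the other way, and the starts of the pair lie 384 bases apart. Zfp990 spans chr4:145510759-145539188 on the plus strand, Ddr2 chr1:169972307-170110762 on the minus strand, Fam20a chr11:109669749-109722279 on the minus strand, 5330417C22Rik chr3:108455694-108536536 on the minus strand and Ddo chr10:40630011-40681847 on the plus strand. All but Foxd2os are protein coding. The start regions of 4 loci are printed because they show how unlike the promoters of genes that were low in the same young cells are, from RefSeq starts in GRCm38.p6, 250 bases before to 50 after the start, 5′ to 3′ on the gene's strand. The first is the Foxd2 region (chr4:114908849-114909148, minus strand), which covers the start of Foxd2 and reaches towards that of Foxd2os. The others are Fam20a (chr11:109722189-109722488, minus strand), Ddo (chr10:40629761-40630060, plus strand) and Ddr2 (chr1:170088895-170089194, minus strand, a RefSeq start inside the GENCODE gene). Capitals mark the TATA box letters TATAAA, the CCAAT box, and the GC box letters GGGCGG, on either strand.
Foxd2: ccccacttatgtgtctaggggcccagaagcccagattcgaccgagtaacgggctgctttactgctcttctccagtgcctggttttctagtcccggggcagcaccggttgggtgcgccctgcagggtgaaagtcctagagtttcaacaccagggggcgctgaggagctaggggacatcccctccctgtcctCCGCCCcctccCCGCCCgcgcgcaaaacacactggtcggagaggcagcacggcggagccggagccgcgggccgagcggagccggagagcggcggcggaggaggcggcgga
Fam20a: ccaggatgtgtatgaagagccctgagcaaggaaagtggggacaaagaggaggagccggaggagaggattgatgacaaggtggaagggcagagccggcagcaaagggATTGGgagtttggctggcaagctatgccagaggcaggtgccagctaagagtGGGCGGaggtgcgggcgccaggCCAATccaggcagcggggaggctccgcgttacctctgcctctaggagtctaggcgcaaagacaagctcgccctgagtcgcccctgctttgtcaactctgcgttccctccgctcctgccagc
Ddo: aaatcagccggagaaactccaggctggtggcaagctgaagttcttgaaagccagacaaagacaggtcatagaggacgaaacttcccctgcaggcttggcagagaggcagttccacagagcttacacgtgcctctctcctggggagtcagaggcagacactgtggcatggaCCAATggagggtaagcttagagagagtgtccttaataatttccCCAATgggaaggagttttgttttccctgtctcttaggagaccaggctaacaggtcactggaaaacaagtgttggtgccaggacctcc
Ddr2: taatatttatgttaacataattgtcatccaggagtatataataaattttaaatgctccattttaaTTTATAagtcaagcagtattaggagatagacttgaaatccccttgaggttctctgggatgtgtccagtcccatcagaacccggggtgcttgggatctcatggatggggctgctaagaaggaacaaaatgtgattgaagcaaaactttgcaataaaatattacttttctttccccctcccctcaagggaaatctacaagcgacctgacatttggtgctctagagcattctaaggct

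The boxes were counted as letters on either strand anywhere in a region, and whether they act as such was not tested. The Foxd2 region held 26 CG pairs and 2 GC boxes, and Fam20a 13 CG pairs, 2 CCAAT boxes and 1 GC box. Ddo held 3 CG pairs and 2 CCAAT boxes. Ddr2 held 2 CG pairs and the TATA box letters 1 time, on the opposite strand and away from the start. The start region of 5330417C22Rik held 21 CG pairs and none of the 3 motifs. Over 32851 promoters of the same length the median was 7 CG pairs. The letters of the TATA box were found in 13.62%, of the CCAAT box in 37.41% and of the GC box in 35.66% of them. The regions thus ranged from few CG pairs (Ddr2 and Ddo) to many (Foxd2, 5330417C22Rik and Fam20a), and no motif was common to all.

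The authors' counts take reads near the 3′ end, where some members share sequence or place with other genes, and the sources used here do not give the use of strand in counting. Of 451 windows of 50 bases in the last 500 bases of the Zfp990 transcript, 111 (24.61%) occurred in transcripts of 10 other genes, Gm8935, Zfp534, Zfp985, Zfp987 and Zfp988 among them, so its counts are uncertain. How many reads came from shared sequence was not measured. Of these, Zfp985 had 3.18 ± 1.79 CPM in young and 2.67 ± 2.68 in aged ISCs (SD, n = 11 and 12), and Zfp987 had no count in any ISC sample. For Ddr2, 9.091% of the windows lay in 3110045C21Rik on the opposite strand, which was at 1.35 CPM in young and 1.39 in aged ISCs. The 3′ end of Fam20a lies 93 bases from that of Prkar1a, at 147 ± 27 CPM in young and 149.8 ± 22.9 in aged ISCs. Foxd2os, 5330417C22Rik and Ddo had no window in another gene. 5330417C22Rik overlaps 1700013F07Rik on the opposite strand by 2387 bases, and that gene was at 0 in young ISCs.

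In ISCs the members ranged from near silence to moderate levels in young mice, and all were higher in aged mice by selection. A total of 34 genes, 0.284% of the 11958 tested, were called higher in aged ISCs at an adjusted p below 0.05. Of these, 12 had a young mean at or under that of 5330417C22Rik (25.4 CPM), the highest of the 6 chosen. The other 6 were P2rx7, Upb1, Parp3, AI427809, Ptpn6 and Gadd45g. Because these are bulk samples, more cells with a transcript and more RNA per cell cannot be told apart. The share of all genes whose aged samples lie above all young ones was not measured in any gate, so such counts below are descriptions. The plot of the members by sample shows all values.

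**Figure D1:**
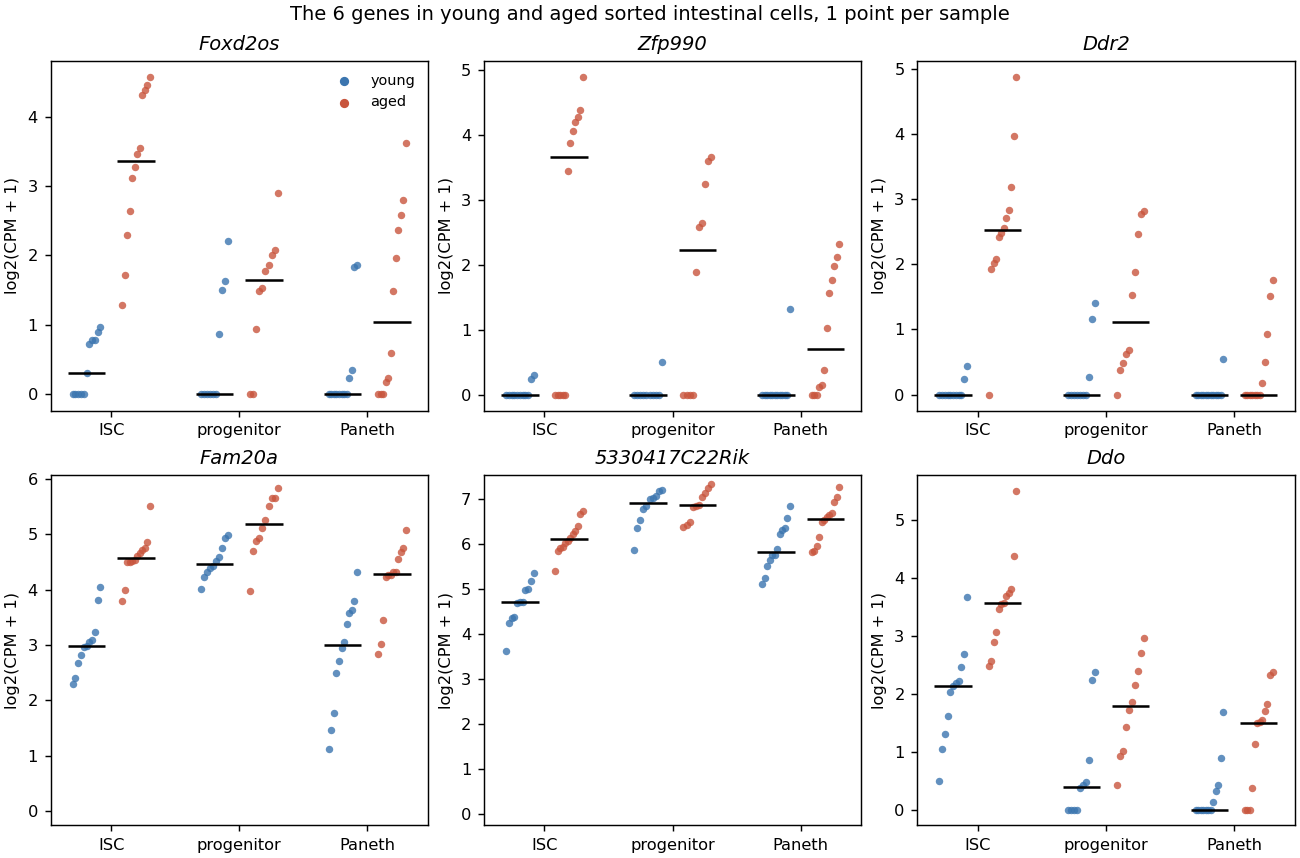
CPM of each gene on a log2(CPM + 1) axis in ISC, progenitor and Paneth samples of young (blue) and aged (red) mice, 1 point per sample and a black line at the median. Aged ISC samples of Foxd2os and 5330417C22Rik lie wholly above the young ones, and Zfp990 is either at 0 or at 9.9 to 28.6 CPM in aged ISCs. The share of all genes that separate this way was not measured.

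Foxd2os had 17 counts over the 11 young ISC samples and 560 over the 12 aged ones. Its level was 0 to 0.95 CPM in young ISCs (median 0.231) and 1.44 to 23 CPM in aged ISCs (median 9.4). No aged sample overlapped the young ones, and the fitted log2 difference was 4.95 ± 0.605. Aged females ranged from 2.3 to 23 CPM and aged males from 1.44 to 19 CPM. The age difference was smaller in males by 2.68 ± 1.15 on the log2 scale, with an adjusted p of 0.674, and no gene (0%) was called for a sex difference of the age effect in ISCs.

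Outside ISCs the groups of Foxd2os overlapped. In progenitors its level was 0 to 3.64 CPM in young (median 0) and 0 to 6.46 CPM in aged samples (median 2.14), and 1 of 10 aged samples lay above the highest young one. The log2 difference was 1.45 ± 0.783 with an adjusted p of 0.626. It was 3.56 without young female replicate 5 (adjusted p = 0.209) and 1.19 without aged female replicate 3. In Paneth cells it was 0 to 2.64 CPM in young (median 0) and 0 to 11.4 CPM in aged samples (median 1.15), with 5 of 12 aged samples above all young ones. The difference of 2.97 ± 1.08 had an adjusted p of 0.456. Neither difference passed the test across all genes.

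Foxd2, the coding neighbour of Foxd2os, had no count in any of the 11 young ISC samples. In aged ISCs it was at 0 in 7 of 12 samples and at 0.257, 0.54, 0.877, 4.83 and 11.53 CPM in the others. All of those 5 samples were males. Its 2 highest samples, from males 116 and 128, had 7.73 and 3.92 CPM of Foxd2os, both below the aged median of Foxd2os. In progenitors Foxd2 stayed under 1 CPM in all samples, and in aged Paneth cells it was at 0 in all 12.

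Zfp990 was near silent in every young gate. It had 2 counts over all young ISC samples and 519 over the aged ones, a ratio of 228 per counts sequenced (95% exact interval 62.7 to 1885, counting error only). Young ISCs ranged from 0 to 0.231 CPM, and aged ISCs from 0 to 28.6 CPM with a median of 11.8. The aged samples fell apart: 7 of 12 held 9.9 to 28.6 CPM, and the other 5 had no count at all. The mean over aged mice, 10.3 ± 10.1 CPM (SD, n = 12), has a spread as large as itself for that reason.

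In progenitors Zfp990 had 2 counts over the 10 young samples and 210 over the 10 aged ones, a ratio of 86.4 (95% exact interval 23.6 to 718, counting error only). Aged progenitors again split, with 6 samples from 2.68 to 11.6 CPM and 4 with no count. The log2 difference of 6.22 ± 1.26 passed the test (adjusted p = 0.0148), where 0.466% of 11812 genes were called higher in aged mice. The gene passed the filter on low counts through aged samples alone, so it had to differ. With no filter the adjusted p was 0.0513 (below 0.05 in 7 of 20 leave-one-out fits, each without an aged sample), with 0.378% of genes called higher, and an exact permutation of age within sex gave an unadjusted p of 0.0139. The call was also lost without young female replicate 4, the only young progenitor sample with counts (adjusted p = 0.0703), and with DESeq2 (0.0732), limma-voom (0.442) or the replicate block (0.0589). Enteroendocrine markers were also higher in aged progenitors: 5 of them summed to 81.7 to 369.5 CPM in young (median 282) and 244 to 1406 CPM in aged samples (median 653.5), each with a higher mean in aged mice. Chgb, a granin of hormone granules, had the highest mean, 134 ± 74.2 and 384.5 ± 219.8 CPM (SD, n = 10 and 10). The 5 markers also had higher medians in the other gates of aged mice. In ISCs the medians were 6.8 CPM in young and 20.7 in aged mice, and in Paneth cells 329 and 547. Their ranges overlapped in each gate. The part of enteroendocrine cells in the values of the members was not tested in any gate.

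In Paneth cells 1 of 12 young samples reached 1 CPM of Zfp990 (male 324, 1.49 CPM, with 2, 1 and 5 counts in its 3 technical libraries). Of the aged samples 6 of 12 did, at 1.04 to 3.97 CPM. The difference of 4.13 ± 1.19 on the log2 scale had an adjusted p of 0.275, and the exact permutation an unadjusted p of 0.0054. No member was called in Paneth cells, where 0.06% of 11663 genes were called higher. With young male 324 left out, no young sample had a count, so no fold is given (adjusted p = 0.0744 in edgeR). With no filter the same fit called the gene (adjusted p = 0.0498).

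At a cut of 1 CPM, aged animals had Zfp990 in all of their gates or in none, with O_111m and O_111m_2nd counted apart. The share of all genes that agree across gates in this way was not measured. Female 144 was near the cut in Paneth cells, with 5 counts. Of 11 aged animals with samples from at least 2 gates, 7 had at least 1 CPM in all of their gates, 4 were below 1 CPM in all, and none was mixed. All 12 young animals with at least 2 gates were below 1 CPM throughout. Males 108 and 110, at 0 in ISCs and progenitors, had 1 and 2 counts in Paneth cells, whereas females 144 and 167 had 18.4 and 13.7 CPM in ISCs, 2.68 and 5.25 in progenitors and 1.04 and 3.33 in Paneth cells. For comparison, Foxd2os was at 1 CPM or more in all gates of 7 of the 11 aged animals and mixed in 3, Ddr2 was mixed in 10 of 11, and Ddo in 2. The sample named O_111m had 28.6 CPM in ISCs and 11.6 in progenitors, and the Paneth sample named O_111m_2nd had 1 count. The sources used here do not say whether these names stand for the same mouse, and they were counted apart. Counted as 1 mouse, it would be mixed.

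**Figure D2:**
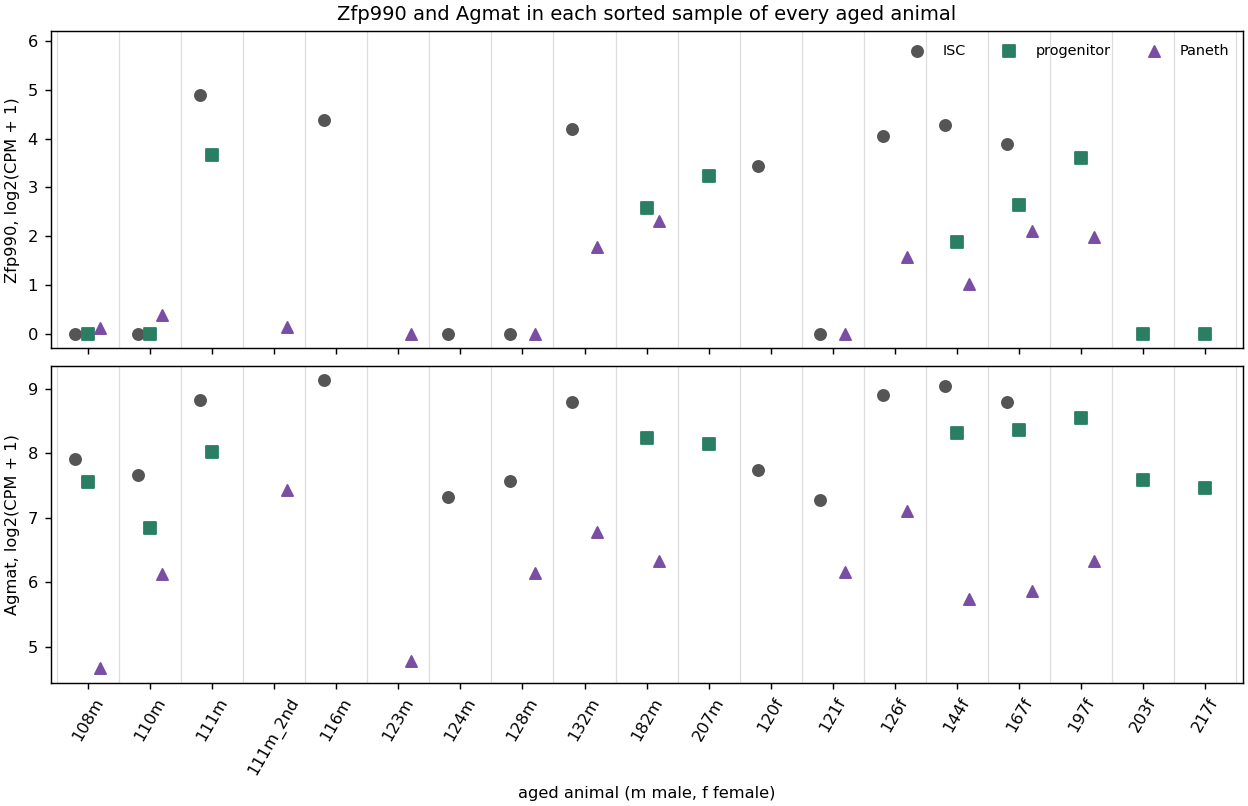
Zfp990 (top) and Agmat (bottom) as log2(CPM + 1) in the ISC (circles), progenitor (squares) and Paneth (triangles) samples of each aged animal, named by number and sex. Zfp990 is at or near 0 in all gates of males 108, 110 and 128 and female 121, and at 1 CPM or more in all gates of males 111 (ISC and progenitor samples only), 132 and 182 and females 126, 144, 167 and 197. The Paneth sample 111m_2nd, near 0 for Zfp990, is plotted apart from male 111.

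The 3 genes most like Zfp990 lay on the same chromosome. Likeness was measured over all 67 samples as Spearman's rho between deviations of log2(CPM + 1) from the mean of each gate, age and sex group, among 12872 genes. The 3 highest were Agmat (0.656), which encodes a mitochondrial ureohydrolase, Zfp979 (0.626), another KRAB zinc finger, and Per3 (0.464), a circadian clock gene. They lie 3.76, 2.1 and 5.49 Mb from Zfp990 on chromosome 4. For the other 5 members none of the 3 most alike genes was on the member's own chromosome, and the highest rho was 0.623. The rho of Per3 was no higher than that of Bicral (0.468), the third gene for Foxd2os, which lies on another chromosome. The share of chromosome 4 among the 12872 genes was not measured. Whether Zfp979 is among the genes that share 3′ windows with Zfp990 is not given here. The points share libraries and depth, and no p is given.

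Agmat was higher in most aged ISC and progenitor samples with Zfp990 than in those without, and Paneth samples did not split this way. In aged ISCs it was at 443 to 560 CPM in the 6 animals 116, 144, 126, 111, 132 and 167, which held 13.7 to 28.6 CPM of Zfp990. Female 120, with 9.9 CPM of Zfp990, had 213 CPM of Agmat, close to males 108 (238.5) and 110 (202), which had no Zfp990. Aged progenitor samples with Zfp990 held 258.5 to 374 CPM of Agmat, and those without held 113 to 192. Aged Paneth samples at 1 CPM or more of Zfp990 held 52.5 to 136 CPM of Agmat, and those below held 24.5 to 172. Agmat rose in aged progenitors by 0.85 ± 0.157 on the log2 scale (adjusted p = 0.00432), and in ISCs and Paneth cells it did not pass the test (0.65 ± 0.233, adjusted p = 0.374, and 0.48 ± 0.212, adjusted p = 0.662). In the Paneth sample O_111m_2nd, with 1 count of Zfp990, Agmat was at 172 CPM and Zfp979 at 8.9 CPM, the highest of the aged Paneth samples for both.

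Zfp979 had no count in the 10 young progenitor samples and 3.63 ± 3.79 CPM in the 10 aged ones (SD), where 6 samples had counts. These 6 were the same samples that had Zfp990. The difference passed the test (adjusted p = 0.0398), and no fold is given because the young samples were all at 0. The call of Zfp979 shares the limit given for Zfp990: the gene passed the filter through aged samples alone, so it had to differ. A list of 30 KRAB zinc fingers of chromosome 4 and their corepressors had 26 genes in the count table. Besides Zfp990, 1 of 11 tested in progenitors (Zfp979), 0 of 11 in ISCs and 0 of 8 in Paneth cells were called. For this and the later lists the member itself is left out, since its call in ISCs was fixed by the choice of the genes. The background shares, 0.284% in ISCs, 0.466% in progenitors and 0.06% in Paneth samples, make a count of 0 in so short a list the usual one. The median without Zfp990 was -0.06 in progenitors, against 0.0043 over all genes. Trim28 was at 613 ± 48.8 CPM in young and 524 ± 47.4 in aged ISCs (n = 11 and 12) and was not called in any gate. The next gene at higher coordinates, Gm13212, was at 7.4 CPM in young ISCs and 12 CPM in aged ones (log2 difference 0.73 ± 0.381, adjusted p = 0.602).

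Ddr2 had 2 counts over the young ISC samples and 363 over the aged ones, a ratio of 159 (95% exact interval 43.8 to 1320, counting error only). Young ISCs ranged from 0 to 0.357 CPM and aged ISCs from 0 to 28.4 CPM, with a median of 4.75. All aged samples but 1 lay above every young one, and the exception, female 120, had no count. Aged males held 2.81 to 28.4 CPM and aged females 0 to 5.58. The test of a sex difference gave an adjusted p of 0.9.

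Ddr2 failed the filter on low counts in progenitors and Paneth cells, where 4 and 2 aged samples reached the level needed in 5. In progenitors it was 0 to 1.64 CPM in young (median 0) and 0 to 6.08 in aged samples (median 1.25), with 5 of 10 aged samples above all young ones. With no filter the log2 difference was 2.95 ± 0.864 with an adjusted p of 0.0946, and the exact permutation gave an unadjusted p of 0.011. Single samples moved this: over 20 leave-one-out fits it was 2.28 to 4.51, with adjusted p from 0.00928 to 0.323 in edgeR. The gene was called without young male replicate 2, young female replicate 1 or aged male replicate 5. In Paneth cells only 3 aged samples had 3 or more counts, and male 108 had all 28 of its counts in 1 technical library. With no filter, where 0.0468% of genes were called higher, the difference there was 3.71 ± 1.24 (adjusted p = 0.184), and the exact permutation gave an unadjusted p of 0.0871.

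Since Ddr2 is known from stromal cells, 14 stromal and endothelial markers were set beside it. Their sum was 0.214 to 11.45 CPM in young ISCs (median 4.37) and 0.562 to 17.7 CPM in aged ISCs (median 5.17). Col1a2, Col3a1, Dcn, Lum, Pdgfra, Cdh5 and Thy1 were at 0 in all 23 ISC samples. The sums, above 0 in every ISC sample, thus came from the rest of the list. These were Col1a1, Pdgfrb, Vim, Acta2, Tagln, Myh11 and Pecam1, whose single values in ISCs are not given here. The ISC sample with the most Ddr2, from male 128 (28.4 CPM), had a marker sum of 0.923 CPM. The one with the highest marker sum, from male 124 (17.7 CPM), had 8.12 CPM of Ddr2. In progenitors the sum was 9.62 to 31.1 CPM in young (median 20.4) and 17 to 122 in aged samples (median 38.6), with Vim at 15 ± 7.7 and 41.5 ± 32.6 CPM, and in Paneth cells the medians were 10.49 and 19. The part of stromal cells in the Ddr2 values of any gate was not tested.

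**Figure D3:**
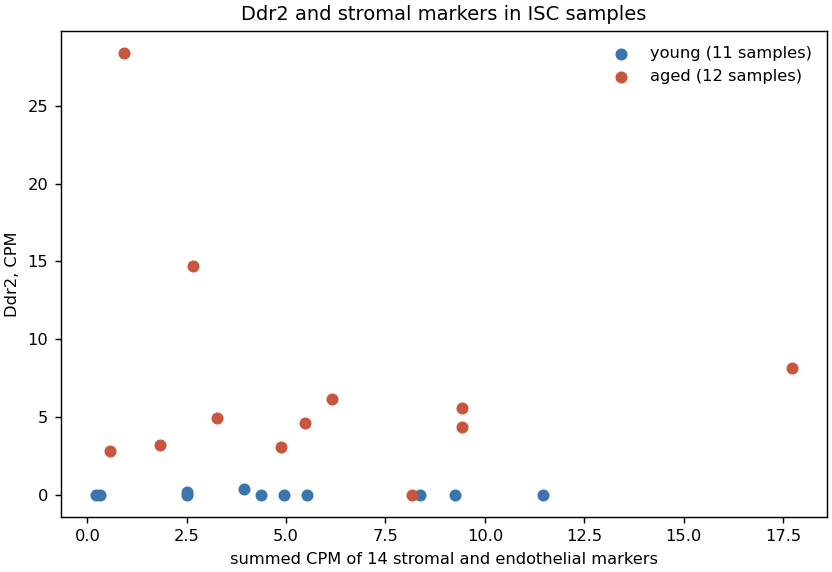
Ddr2 (CPM, vertical) against the summed CPM of 14 stromal and endothelial markers (horizontal) in 11 young (blue) and 12 aged (red) ISC samples, 1 point per sample. The sample with the highest Ddr2, 28.4 CPM, is at 0.923 CPM on the marker axis, and the sample with the highest marker sum, 17.7 CPM, has 8.12 CPM of Ddr2.

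The list of discoidin and collagen receptors held 18 genes. Besides Ddr2, 0 of 12 tested in ISCs, 0 of 10 in progenitors and 0 of 11 in Paneth samples were called, counts near the background of all genes. The list medians without Ddr2 were 0.02, -0.07 and 0.04 on the log2 scale, against -0.0022, 0.0043 and 0.0081 over all genes. Ddr1, the epithelial relative of Ddr2, was at 69.7 ± 9.51 CPM in young and 61.6 ± 12.7 in aged ISCs, and Itga2, an integrin subunit that binds collagen, at 34.9 ± 9.3 and 37.7 ± 15.2 CPM (n = 11 and 12). The ranges of both overlapped between the ages.

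Fam20a was present in every sample. In ISCs it was at 3.9 to 15.6 CPM in young (median 6.87) and 12.9 to 44.7 CPM in aged mice (median 22.8), with 10 of 12 aged samples above all young ones and a log2 difference of 1.66 ± 0.254. In progenitors the level was 15.1 to 30.6 CPM in young (median 21.2) and 14.7 to 56 CPM in aged mice (median 35.6), and 6 of 10 aged samples lay above all young ones. The progenitor difference was 0.75 ± 0.193 with an adjusted p of 0.057. With no filter it passed the test (adjusted p = 0.0277, with 0.378% of genes called higher), as it did in DESeq2 (0.0201) and with the replicate block (0.0486), and the exact permutation gave an unadjusted p of 0.00526. Leaving out young male replicate 4, aged male replicate 3 or aged female replicate 3 also brought the adjusted p below the threshold (0.0358, 0.0157 and 0.0212). The call with no filter held in 14 of 20 leave-one-out fits in edgeR. It was lost without young male replicate 3, young female replicate 1, aged male replicate 2 or 4, or aged female replicate 1 or 2, with adjusted p from 0.0544 to 0.0891. Young progenitors held 22.3 ± 5.05 CPM (SD, n = 10) and aged ISCs 23.9 ± 7.83 (n = 12), and these were not tested against each other.

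Mitochondrial transcripts took 51.4% to 73.4% of the counts of young Paneth samples and 31.4% to 65.8% of aged ones, against at most 9.69% in the other gates, which moves Paneth CPM between the ages. With mitochondrial genes left out, the fitted difference in Paneth cells was 0.88 for Fam20a, 2.98 for Foxd2os, 4.13 for Zfp990, 0.34 for 5330417C22Rik and 2.96 for Ddo, and none was called. In Paneth cells Fam20a ranged from 1.19 to 19 CPM in young (median 7.03) and from 6.17 to 32.8 CPM in aged mice (median 18.6). The groups overlapped, with 5 of 12 aged samples above all young ones. The difference of 0.88 ± 0.355 did not pass the test (adjusted p = 0.571), and the exact permutation gave an unadjusted p of 0.00651. With library totals left unscaled the median over all genes was 0.24 (log2) and the Fam20a difference 1.18.

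The kinase that Fam20a activates, Fam20c, was at 16.8 ± 6.48 CPM in young and 14.7 ± 9.54 in aged ISCs, and its relative Fam20b at 85.3 ± 30.3 and 79 ± 15.1 CPM (n = 11 and 12). Of a list of 22 secretory-pathway kinases, 15 were in the count table. Besides Fam20a, 0 of 10 tested in ISCs, 0 of 10 in progenitors and 0 of 9 in Paneth samples were called, and the list medians without it were -0.0047, 0.09 and -0.07. Prkar1a, whose end faces that of Fam20a, differed by 0.02 ± 0.104 in ISCs and 0.09 ± 0.114 in progenitors.

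5330417C22Rik had the highest young level of the 6 genes in ISCs. It was at 11.3 to 39.6 CPM in young ISCs (median 25) and 41.4 to 105 CPM in aged ISCs (median 67.6), with no overlap and a log2 difference of 1.49 ± 0.183. In progenitors it was at 57.2 to 147 CPM in young (median 120) and 82 to 161 CPM in aged mice (median 115). These ranges overlapped almost fully, the difference was 0.1 ± 0.15 (adjusted p = 0.917), and its 95% interval ran from -0.2 to 0.39. In Paneth cells it was at 33.3 to 114 CPM in young (median 55.8) and 55.8 to 153 CPM in aged mice (median 93.6), with a difference of 0.33 ± 0.197 (adjusted p = 0.804) and an interval from -0.06 to 0.71. In animals with no ISC sample the sign turned in both gates (-0.28 and -0.38, neither called).

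Against the rest of the transcriptome, 5330417C22Rik was higher in Paneth cells than in progenitors, by 0.98 ± 0.196 (log2) in young and 1.22 ± 0.198 in aged mice. Both passed the test (adjusted p = 0.000115 and 2.7e-06), where 22.7% and 21.1% of 12589 genes were called. This fit had no term for the animal, although 14 animals gave samples of both gates. With the animal as a block both calls held. These directions depend on the scaling: with library totals unscaled the values were -0.82 and -0.3, and the medians over all genes were -1.71 and -1.45. No other member was called between these gates in either age with the main scaling.

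The genes most like 5330417C22Rik within groups were Muc2 (rho 0.623), the main goblet cell mucin, Smim14 (0.616) and Tmco3 (0.611), over 67 samples. None of these 3 was called in any age effect. Summed CPM of 5 goblet markers had a median of 733 in young and 861 in aged ISCs, against 23670 and 22880 in progenitors, and Muc2 was at 89 ± 49 and 109 ± 57.3 CPM in ISCs. The part of goblet transcripts in the ISC values of 5330417C22Rik was not tested. Of a list of 25 genes on secretory maturation, 23 were in the count table. Besides 5330417C22Rik, 0 of 17 tested in ISCs, 0 of 19 in progenitors and 0 of 20 in the Paneth gate were called, with medians of -0.0079, 0.09 and 0.25.

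Ddo, with Zfp990, had groups that overlapped most in ISCs. It was at 0.427 to 11.7 CPM in young (median 3.4) and 4.63 to 44.1 CPM in aged mice (median 10.9), with 5 of 12 aged samples above all young ones. The fitted log2 difference was 1.92 ± 0.432. Without aged male 111 (44.1 CPM) it was 1.56. In progenitors it was at 0 to 4.22 CPM in young (median 0.33) and 0.358 to 6.87 in aged mice (median 2.47), and all 10 aged samples lay above the young median. The difference was 1.82 ± 0.69 (adjusted p = 0.35), and the exact permutation gave an unadjusted p of 0.0126.

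In Paneth cells Ddo was at 0 to 2.24 CPM in young (median 0) and 0 to 4.23 CPM in aged mice (median 1.85), with 4 of 12 aged samples above all young ones. The difference was 2.96 ± 0.996 (adjusted p = 0.412), and the exact permutation gave an unadjusted p of 0.005. Dao, the oxidase of neutral D-amino acids, stayed below 1 CPM on average in all gates at both ages (0.852 ± 0.739 in young and 0.796 ± 0.824 in aged ISCs). On the list of 22 peroxisomal oxidases and genes of D-amino acid metabolism, besides Ddo, 0 of 19 tested in ISCs, 0 of 19 in progenitors and 0 of 18 in Paneth samples were called. The medians without Ddo were 0.009, 0.09 and 0.04.

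The plot of age differences sets the members side by side with their errors. The exact permutation tests given for the members were 12, on TMM-scaled log2(CPM + 1) within sex, and their p-values are unadjusted. Those not given above were 0.0535 for Foxd2os and 0.53 for 5330417C22Rik in progenitors, and 0.0161 and 0.108 for the same genes in Paneth cells. The same 12 tests were also run on CPM without that scaling, where 5330417C22Rik in Paneth cells had 0.00829. The permutation was run for the members only. The share of all genes with such p-values is thus not known, and these tests do not show whether the members stand out. With no ties the smallest p in progenitors would be 3.149e-05, from 63504 arrangements, and Paneth cells had 792792 arrangements. For genes with many samples at 0, tied arrangements raise the smallest p that can be reached.

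**Figure D4:**
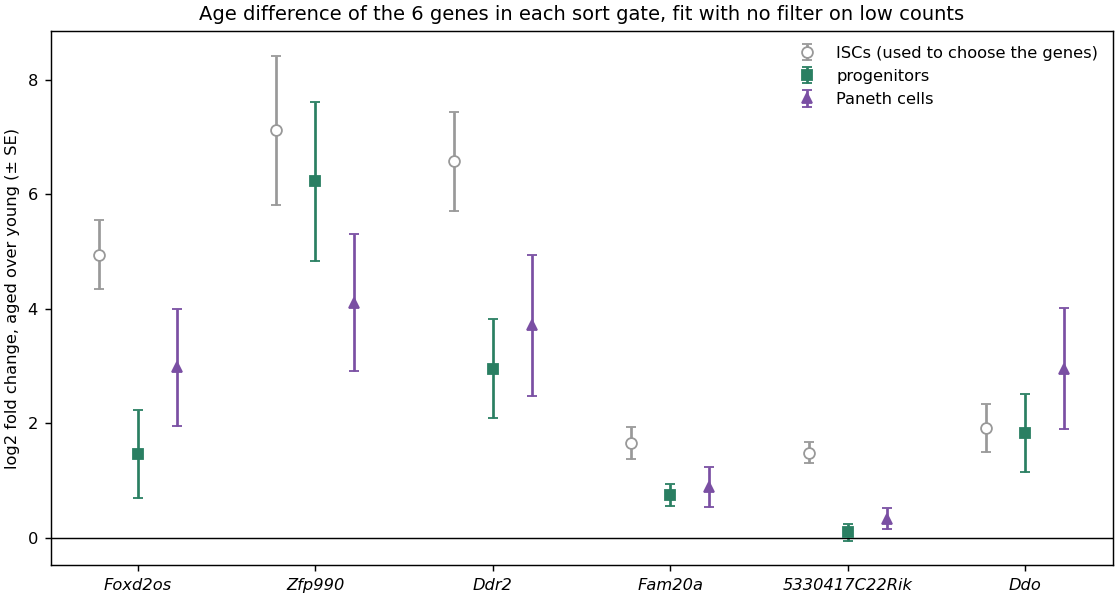
Fitted log2 fold change, aged over young, for each gene in ISCs (open circles, the contrast that chose the genes), progenitors (squares) and Paneth cells (triangles), from the fit with no filter on low counts, with bars of 1 SE. Values outside ISCs run from 0.1 (5330417C22Rik in progenitors) to 6.22 (Zfp990 in progenitors).

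The difference between the age effects in progenitors and Paneth cells was tested and not called for any member. No gene (0%) was called for that difference. The Paneth difference minus the progenitor difference was 1.59 for Foxd2os (95% interval -1.21 to 4.39), 1.08 for Ddr2 (-1.07 to 3.23), 0.14 for Fam20a (-0.71 to 0.99), 0.24 for 5330417C22Rik (-0.29 to 0.78) and 1.18 for Ddo (-1.23 to 3.59). The fit gave no usable error for Zfp990. These intervals come from the fit with no term for the animal, and they allow large differences either way for the low genes. No sex difference of the age effect was called for any member in progenitors or Paneth cells, where 0% of genes were called; at an unadjusted p below 0.05 the one member was Zfp990 in Paneth cells (p = 0.0241), with a male minus female difference of -5.18 ± 2.2.

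The low genes were also followed through the technical libraries of Paneth cells. Each animal's Paneth RNA had been made into several libraries, 69 in all, which were summed. For the low genes some animals had all of their counts in 1 of these libraries. Among aged animals with at least 3 counts, all counts came from 1 library in 2 of 6 for Foxd2os, 3 of 6 for Zfp990, 2 of 3 for Ddr2 and 3 of 9 for Ddo. Fam20a and 5330417C22Rik, present in all 24 samples, had no such animal. In young Paneth cells the 2 highest Foxd2os values, from females 314 and 315, rested on 19 of 20 and 20 of 20 counts in 1 library.

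**Figure D5:**
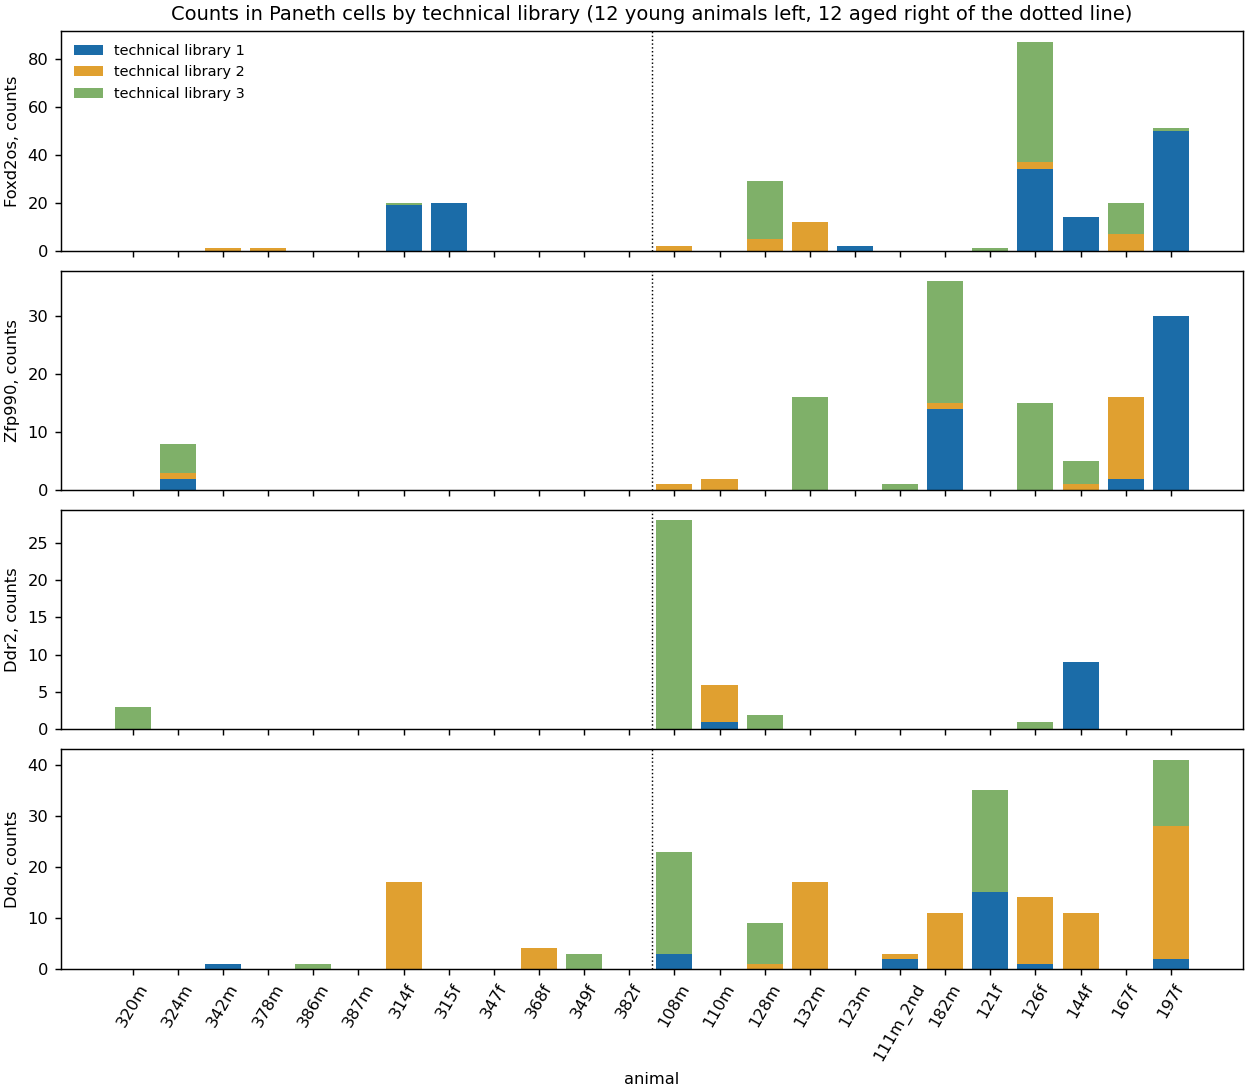
Counts of Foxd2os, Zfp990, Ddr2 and Ddo in Paneth cells, stacked by technical library, for 12 young animals (left of the dotted line) and 12 aged animals (right). Many bars have a single colour, such as the 28 Ddr2 counts of male 108 and the 30 Zfp990 counts of female 197.

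The number of animals in which a transcript was seen followed the levels. At 1 CPM or more, Foxd2os was seen in 0 of 11 young and 12 of 12 aged ISC samples, Zfp990 in 0 and 7, Ddr2 in 0 and 11, and Ddo in 10 and 12. In progenitors the numbers, of 10 young and 10 aged, were 3 and 7 for Foxd2os, 0 and 6 for Zfp990, 2 and 5 for Ddr2 and 2 and 8 for Ddo. In Paneth cells, of 12 and 12, they were 2 and 6, 1 and 6, 0 and 2, and 1 and 8. Fam20a and 5330417C22Rik reached 1 CPM in all samples. Thinned to the smallest library of the gate, the expected number of ISC samples with a count of Foxd2os was 5.11 of 11 young and 11.98 of 12 aged.

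Several ISC sample names end in _1, _2 or no number, and the sources used here do not say what this means. All _2 samples were aged, so that ending and age cannot be told apart. Among names ending in _1 the log2 differences in ISCs were 4.77 for Foxd2os, 6.54 for Zfp990, 7.13 for Ddr2, 1.65 for Fam20a, 1.56 for 5330417C22Rik and 1.58 for Ddo. Among females with no number (young 347, 349 and 368, aged 144 and 167) they were 1.99 for Fam20a, 1.59 for 5330417C22Rik and 1.44 for Ddo. No fold is given there for Foxd2os, Zfp990 and Ddr2, because the young samples were all at 0. No male could be compared there.

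Some animals gave no ISC sample, 5 young and 5 aged in progenitors and 5 and 4 in Paneth cells. In these the Zfp990 difference in progenitors was 6.12 ± 1.71 (adjusted p = 0.318, and 1.46e-05 with no filter), and that of Fam20a was 0.7 ± 0.268 (adjusted p = 0.503). For Zfp990, aged males 182 and 207 and female 197 held 5.01, 8.45 and 11.15 CPM there. Aged females 203 and 217 had no count, and the only young counts were 2 in female 382. With so many samples at 0 the p depended on the filter, and no conclusion is drawn from it. Levels in animals that did give an ISC sample come from mice whose ISCs entered the choice of the genes.

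No neighbouring gene that could be tested was called in any gate. Of the 5 genes on each side of a member, those with enough counts were tested in each gate. Foxd2, the nearest neighbour of Foxd2os, had too few counts and was not tested. The lowest adjusted p was that of Cmpk1 beside Foxd2os in ISCs (0.47 ± 0.117, adjusted p = 0.0588). On the list of 29 FOXD and intestinal forkhead factors, besides Foxd2os, 0 of 16 tested in ISCs, 0 of 13 in progenitors and 0 of 14 in Paneth samples were called. The medians without it were -0.04, -0.03 and -0.19.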

How the data were processed

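Poly(A) RNA of sorted cells was sequenced from its 3′ end. The authors deposited raw read counts per gene, made with cutadapt 3.0, STAR 2.7.9a, HTSeq 0.13.5 and mm10, per the submitters' processing notes, which also name DESeq2 1.30.1. The sources used here do not give the annotation release or the strand setting. The 112 libraries gave 67 samples after the 69 Paneth libraries were summed per animal, and no 2 libraries were identical (highest correlation 0.986). Age effects, the mean of the male and female differences, were tested on the counts with edgeR 4.0.16 (filterByExpr minimum count 10, TMM scaling, robust quasi-likelihood F test, Benjamini-Hochberg adjustment over all genes, threshold 0.05) in R 4.3.3. SE is the log2 difference divided by the root of F. Alternatives used DESeq2 1.42.0 and limma 3.58.1. CPM is the count per 1000000 counts of the sample. The script was tested on simulated data. P-values measure the spread between animals, and those between gates come from a fit that does not pair the samples of an animal. Same-numbered replicates were not paired (median correlation of deviations 0.0184 in ISCs). Genes named beyond the 6 are the 3 most alike, neighbours and list genes. The members and lists were chosen with earlier results of these data known. Loci are from GENCODE M21, and promoter sequences from RefSeq (4 of 6 genes matched). Intervals on summed counts cover counting error only. The gene just outside the range of young levels that the 6 genes span is not reported here.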

Additional observations from a re-analysis of the deposited data

Results flagged for a closer look

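In 18 of 68 groups of 4 to 10 samples, 1 sample stood apart from the others in the CPM of a member. The rule flags about 1 in 20 groups by chance when values are normally distributed. In a group otherwise at 0, as in those of Zfp990 below, any 1 sample with a count is flagged. The number flagged is therefore not set against that rate. For Foxd2os these were young male ISC replicate 3 (0.0), young female ISC replicate 1 (0.648), young female progenitor replicate 5 (2.11) and aged male Paneth replicate 3 (6.01). For Zfp990 they were young male ISC replicate 3 (0.179), young female ISC replicate 2 (0.2315), young female progenitor replicate 4 (0.414) and young male Paneth replicate 2 (1.49). For Ddr2 they were young male progenitor replicate 2 (1.24), young female progenitor replicate 1 (1.645), young male Paneth replicate 1 (0.456), aged male Paneth replicate 1 (2.37) and aged female Paneth replicate 3 (1.87). Fam20a stood apart in aged female ISC replicate 3 (44.7) and young male Paneth replicate 2 (18.96), and 5330417C22Rik in aged male Paneth replicate 2 (153.4). Ddo stood apart in aged male ISC replicate 3 (44.1) and aged female ISC replicate 5 (19.9).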

How the results depend on the processing

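The ISC contrast chose the genes, so its member calls describe that choice and support nothing. With all samples 6 members were called in ISCs, where 0.284% of all genes were called higher. The number was 4 with limma-voom and 4 among names ending in _1 (Zfp990 and Ddo lost in both). It was 5 without animals of 26 and 27 months (Ddo lost). Among females whose names have no number 1 was called, Zfp990, which was at 0 in all young samples there. Foxd2os and Ddr2 had no fit in those females. In progenitors 1 was called with no filter, with DESeq2 and with the replicate block too, but it was Fam20a in place of Zfp990. The number was 0 with limma-voom, 0 in animals with no ISC sample, and 2 in those animals with no filter. Leaving out 1 sample gave 5 to 6 members in ISCs, 0 to 2 in progenitors, 0 to 0 in Paneth cells and 1 to 1 between Paneth cells and progenitors. With library totals unscaled, 4 members were called between young Paneth cells and progenitors and 2 between aged ones, and signs turned for Fam20a (-1.53 young, -1.045 aged) and 5330417C22Rik (-0.82 and -0.30). The share of progenitor calls that were higher moved from 63.95% to 53.09% under that setting.

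Over all genes, calls moved in ISCs from 42 to 106 with DESeq2, 18 among names ending in _1 and 9 among females with no number. In progenitors they moved from 86 to 142 with DESeq2, 34 without animals of 26 and 27 months and 17 in animals with no ISC sample. In Paneth cells they moved from 8 to 22 unscaled, 30 with DESeq2, 14 with limma-voom, 3 with the first technical library alone, 2 without animals of 26 and 27 months, 5, 13 and 3 without young female replicate 4, young female replicate 6 and aged female replicate 1, and 0 (2 with no filter) in animals with no ISC sample. Between Paneth cells and progenitors they moved from 2853 to 10289 (young) and from 2651 to 9613 (aged) unscaled, and to 1617 with an animal block. With the replicate block, Zfp990 in progenitors had an adjusted p of 0.0589 and Fam20a of 0.0486 in edgeR; sex differences in ISCs went from 0 to 7 genes. Sex differences in progenitors went from 0 to 4 with no filter, 2 with DESeq2, and 7 with no filter in animals with no ISC sample. At 2.18 M counts in the smallest ISC sample, low members rest on few counts.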
